A study of Homo sapiens with 6 samples.

Results

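The genes described here encode the proteins that license replication origins, unwind DNA at the fork and copy it. They are the 48 genes of a list of replication factors, found by symbol in a table of 15024 rows, where they take 49 rows because POLA2 is listed under 2 identifiers. All 48 passed the filter on low values and were among the 14343 genes tested. RNA was sequenced from MDA-MB-231, an established triple-negative breast cancer line, carrying the non-targeting guide sgNT and grown with 10 μM forskolin, an activator of adenylyl cyclase and so of protein kinase A, for 14 days. One group of 3 libraries held cells sorted as CD44+CD104high (CD104high) and the other group of 3 held cells sorted as CD44+CD104-/low (CD104low). CD104 is the integrin beta 4 subunit. Both groups share the line, the guide and forskolin, and untreated cells and cells with other guides were not analysed here. The labels call the libraries biological replicates but do not name separate cultures or sorts, so p-values measure the spread between these libraries.

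Replication is prepared in G1, when the origin recognition complex, with CDC6 and CDT1, loads the ring-shaped MCM2-7 helicase onto DNA. Geminin, encoded by GMNN, binds CDT1 after S phase begins and prevents a further round of loading. The kinase CDC7 with DBF4 and the factors CDC45, GINS and MCM10 turn the loaded ring into an active helicase, after which the polymerases, the PCNA clamp with its RFC loader, and the single-strand binding protein RPA copy the strands. Many of these genes are transcribed under E2F factors as cells pass from G1 into S phase.

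Most replication genes were somewhat lower in CD104high cells, by amounts that are small next to the sort marker. Of the 48 genes, 46 had a log2 fold change (CD104high over CD104low) below 0, with a median of −0.22, against a median of 0.0089 over all genes tested, of which 48.8% were below 0. At an adjusted p under 0.05 in limma, 16 fell and 0 rose, or 33.3% lower, against a background of 11.3% lower and 12.1% higher among all 14343 genes. At an unadjusted limma p under 0.05, 26 were lower and 0 higher, against 18.2% lower and 18.7% higher of all genes. In 26 genes all 3 CD104high libraries lay below all 3 CD104low libraries, which held for 21.3% of all genes, and the opposite held for 0 of the 48 and for 19.9% of all genes. In 38 of the 48 the CD104high library was lower in each of the 3 numbered pairs, against 30.4% of all genes. The list was chosen with earlier results of these data known, so these shares describe it and are not an independent test. The replication genes are well expressed, with a median level of 3244 normalised reads against 1323 for all genes. Among the 9926 genes within their range of level, 15% were lower, 26.7% were lower without overlap, 54.1% were below 0 and the median was −0.027. In bulk RNA, fewer cells of a type, such as cells in S phase, and less of these RNAs per cell cannot be told apart. Among the genes that passed, the largest falls were those of CDCA7 and TIPIN, followed by GMNN and the clamp loader gene RFC5, while MCM6, ORC6 and TIMELESS lay within 0.03 of 0 on the log2 scale.

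**Figure D1:**
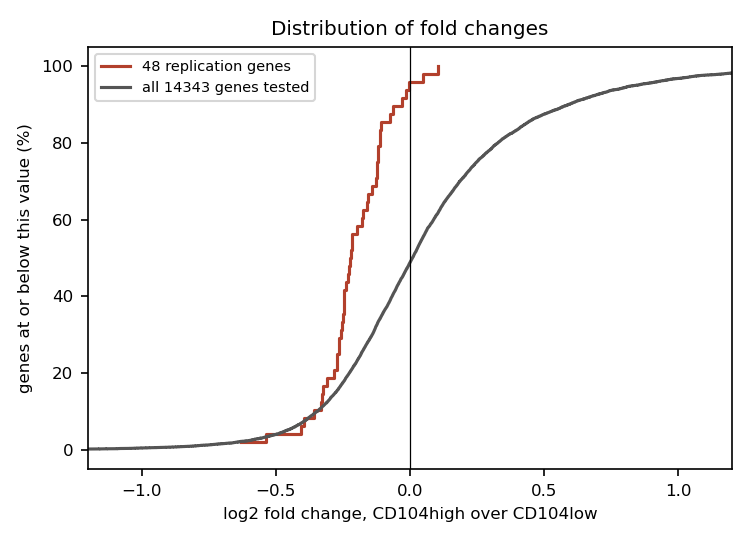
The cumulative share of genes (vertical axis, percent) is plotted against the log2 fold change of CD104high over CD104low for the 48 replication genes (red) and all 14343 genes tested (grey). The red line is steep and lies left of 0, with 46 genes below it and a median of −0.22.

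The count of called genes depended on single libraries. With same-numbered libraries treated as pairs (the block), 25 of the 48 genes fell and 0 rose, against a background of 15.4% lower and 17.4% higher. This pairing was inferred from the same values, so calls with the block are an alternative and not independent evidence. Without CD104high replicate 1 the count was 4, or 8.33% against 5.57% of all genes. Without CD104high replicate 2 it was 3, or 6.25%, no more than the 6.28% of all genes. It was 12 without CD104high replicate 3, against 8.33% of all genes. Without CD104low replicates 1, 2 and 3 it was 11, 8 and 13, against 8.92%, 7.18% and 10.8% of all genes. The median stayed between −0.26 and −0.18 in these 6 fits. CDCA7, TIPIN and MCM10 kept their calls in all 19 alternative fits. Where a call is said below to have ended, only fits without 1 library are listed unless another is named. Calls that ended in other fits are given with the dependence on processing. Per library, the median deviation of the 48 genes from their own means was −0.13, −0.15 and −0.016 on the log2 scale in CD104high replicates 1 to 3, against 0.14, 0.068 and 0.091 in CD104low replicates 1 to 3. CD104high replicate 3 was thus nearest to the CD104low libraries. The highest value of a gene stood in CD104low replicate 1 for 22 genes, and the lowest in CD104high replicate 2 for 23.

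**Figure D2:**
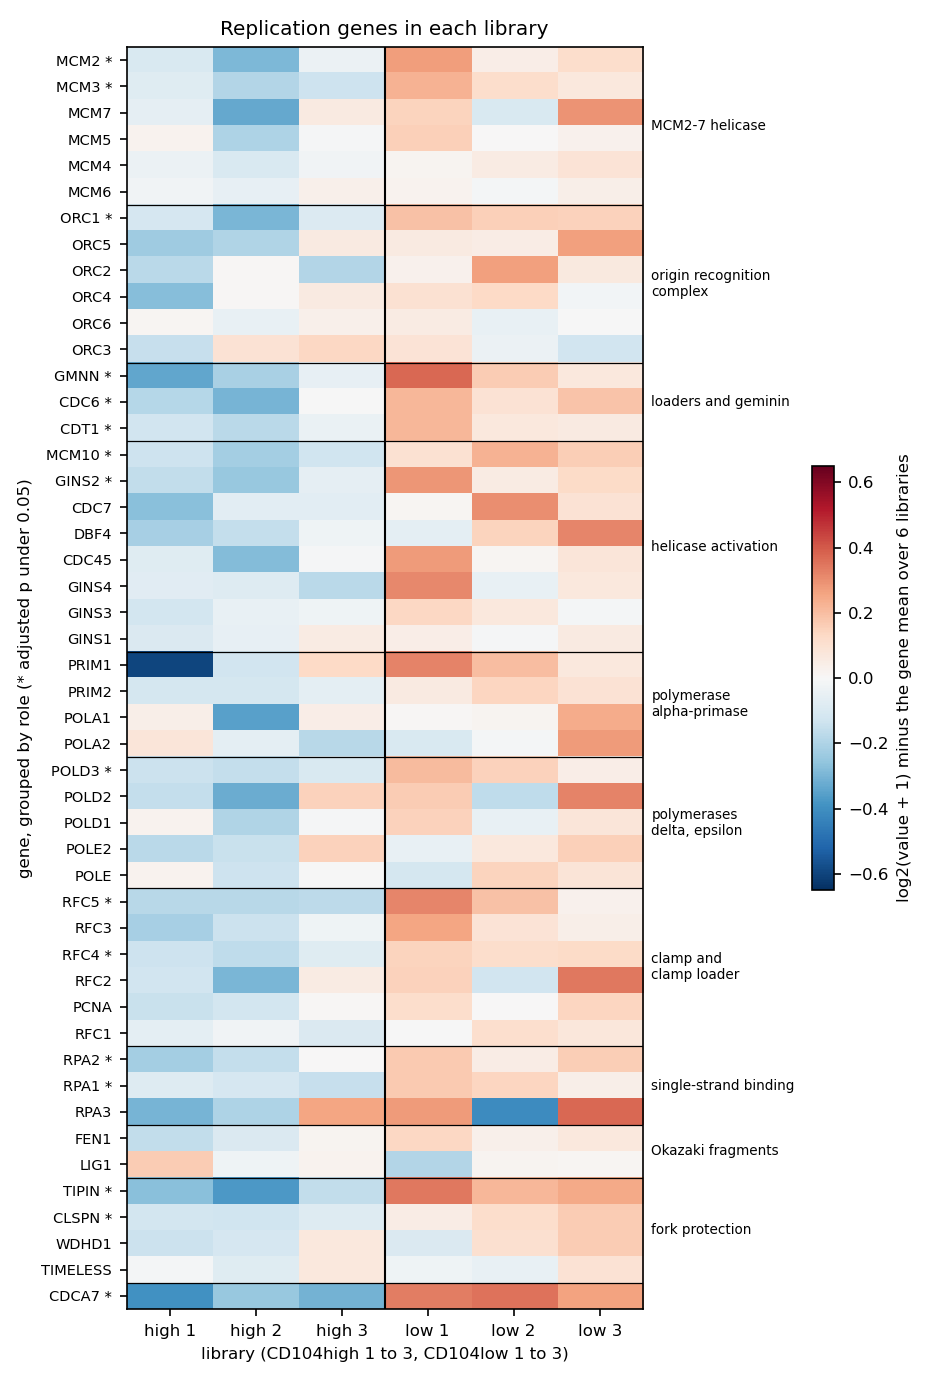
Each row is a gene and each column a library, with the 3 CD104high libraries left of the 3 CD104low libraries, and colour gives log2(value + 1) minus the gene's mean over 6 libraries. Asterisks mark the 16 genes with an adjusted p under 0.05; most rows are blue on the left and red on the right, and CD104high 3 is the palest of the left columns.

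Facts of the whole set of libraries are as follows. Depth ran from 52088604 to 56958065 gene reads in a library. ITGB4, which encodes the sort marker, was 5.83-fold higher in CD104high (adjusted p = 4.1e-05), and VIM, which this mesenchymal line expresses, had 20735 to 23439 normalised reads in CD104high and 20936 to 21588 in CD104low. The genes of the estrogen and progesterone receptors, proteins that a triple-negative line lacks, were not analysed here. Of markers of other cell types, 2 of 5 immune genes, 2 of 4 endothelial genes and 5 of 5 fibroblast genes were in the table. The summed immune level was 545 to 591 in CD104high and 248 to 276 in CD104low, nearly all of it CD14 (adjusted p = 0.000359), with CD79A at no more than 18.7 reads in any library and PTPRC not analysed here. Summed fibroblast markers ran from 5063 to 7482 in CD104high and from 3120 to 5155 in CD104low, with COL1A2 2.82-fold higher (adjusted p = 0.00402). LUM and PDGFRB were 4.64-fold and 1.54-fold higher in CD104high and did not pass (limma adjusted p = 0.0591 and 0.128). COL1A1 was at 1.07-fold (limma adjusted p = 0.65), and DCN had no more than 4.94 reads in any library. The summed endothelial level was 60.7 to 130 in CD104high and 88.6 to 114 in CD104low. The part of these genes in the results was not tested.

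The promoters of 4 genes that fell are shown because they are those with the largest falls, and that of MCM6 because it held the most matches to the E2F motif while its level hardly differed. They are from RefSeq on GRCh38.p14, 300 bases from 250 before to 50 after the annotated start, written 5′ to 3′ on the gene's strand. Capitals mark E2F matches (TTTCCCGC, TTTCGCGC, TTTGCCGC or TTTGGCGC, on either strand) and CCAAT boxes (CCAAT, either strand). TIPIN and GMNN each have 2 windows, of which the one with the most E2F matches is shown.
CDCA7, plus strand, chr2:173354622-173354921: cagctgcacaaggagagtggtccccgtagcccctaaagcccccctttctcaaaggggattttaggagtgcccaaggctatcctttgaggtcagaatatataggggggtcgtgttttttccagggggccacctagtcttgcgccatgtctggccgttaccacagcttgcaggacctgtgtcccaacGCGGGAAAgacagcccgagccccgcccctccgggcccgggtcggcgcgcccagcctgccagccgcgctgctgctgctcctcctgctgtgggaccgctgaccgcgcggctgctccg
TIPIN, minus strand, chr15:66356636-66356935: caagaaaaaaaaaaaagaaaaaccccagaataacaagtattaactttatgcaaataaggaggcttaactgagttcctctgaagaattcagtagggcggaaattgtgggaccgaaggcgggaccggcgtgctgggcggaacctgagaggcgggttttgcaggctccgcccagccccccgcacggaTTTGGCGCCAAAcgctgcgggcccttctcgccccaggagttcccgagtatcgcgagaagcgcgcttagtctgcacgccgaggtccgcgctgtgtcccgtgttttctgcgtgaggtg
GMNN, plus strand, chr6:24775163-24775462: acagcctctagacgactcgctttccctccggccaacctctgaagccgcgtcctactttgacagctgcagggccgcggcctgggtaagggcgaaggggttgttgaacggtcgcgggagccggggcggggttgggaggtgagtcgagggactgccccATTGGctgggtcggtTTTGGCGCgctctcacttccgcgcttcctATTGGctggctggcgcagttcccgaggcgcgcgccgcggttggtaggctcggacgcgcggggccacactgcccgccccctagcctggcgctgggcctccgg
RFC5, plus strand, chr12:118016453-118016752: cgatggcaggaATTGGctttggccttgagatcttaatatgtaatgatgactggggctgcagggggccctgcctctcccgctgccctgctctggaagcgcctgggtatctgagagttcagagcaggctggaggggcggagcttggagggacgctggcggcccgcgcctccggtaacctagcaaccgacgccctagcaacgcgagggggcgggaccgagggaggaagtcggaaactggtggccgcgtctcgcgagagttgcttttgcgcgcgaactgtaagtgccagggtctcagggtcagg
MCM6, minus strand, chr2:135876394-135876693: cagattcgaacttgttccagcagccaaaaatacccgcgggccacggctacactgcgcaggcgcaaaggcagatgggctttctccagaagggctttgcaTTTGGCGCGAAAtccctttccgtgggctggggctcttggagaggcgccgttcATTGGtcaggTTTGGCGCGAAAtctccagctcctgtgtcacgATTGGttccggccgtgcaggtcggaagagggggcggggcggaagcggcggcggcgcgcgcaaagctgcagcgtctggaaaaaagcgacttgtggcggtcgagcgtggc
The CDCA7 window held 1 E2F match, which began 65 bases before the start. The capitals of TIPIN are 2 overlapping matches, on opposite strands, and those of MCM6 are 2 pairs of overlapping E2F matches, beginning 152 and 90 bases before the start, and 2 CCAAT boxes. GMNN held 1 E2F match between 2 CCAAT boxes, and RFC5 a CCAAT box and no E2F match in these letters.

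A RefSeq promoter was at hand for 42 of the 48 genes, in 53 windows. Of these windows, 22 (41.5%) held an E2F match, against 4.83% of 16070 windows of all tested genes. CCAAT boxes stood in 52.8% of the replication windows and 34.3% of all windows. The E-box CACGTG, searched as the site of MYC, stood in 13.2% of the replication windows and 9.07% of all windows. The 22 genes with a match had a median log2 fold change of −0.22 and 9 had fallen, and the 20 without a match had a median of −0.23 and 5 had fallen. The difference between these sets was not tested. These are matches of letters, not sites shown to be bound.

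CDCA7 is a chromatin protein that recruits the remodeller HELLS and supports DNA methylation after replication, and it is a known target of MYC. It had 2410, 2666 and 2562 normalised reads in CD104high libraries 1 to 3, against 3992, 4045 and 3792 in CD104low libraries 1 to 3. The groups lay far apart, with little spread inside either. It fell by 0.63 on the log2 scale (SE 0.07, limma adjusted p = 0.00046), a level of 0.646 times that of CD104low, in 3 of 3 numbered pairs. CDCA7 (ENSG00000144354.14) lies on the plus strand of chromosome 2, at 173354820 to 173368997 (GRCh38, GENCODE 29). ZBTB24, a zinc finger factor that activates CDCA7 and is mutated in the same immunodeficiency syndrome, also fell, with 592, 642 and 626 reads in CD104high against 884, 882 and 822 in CD104low, a fall of 0.48 on the log2 scale (SE 0.10, limma adjusted p = 0.00697). HELLS, the remodeller itself, had 2674 ± 251 in CD104high and 3149 ± 509 in CD104low (SD, n = 3 each) and did not pass (limma adjusted p = 0.192).

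Of 4 fork protection genes, TIPIN and CLSPN fell (50%, against 11.3% of all genes). TIPIN, which holds TIMELESS at the fork and helps to activate the checkpoint kinase CHK1, had 829, 771 and 896 reads in CD104high, against 1268, 1162 and 1189 in CD104low. Every CD104high library was lower, and TIPIN fell by 0.54 on the log2 scale (SE 0.09, limma adjusted p = 0.00374). Its partner TIMELESS had 4475, 4264 and 4731 reads in CD104high and 4428, 4356 and 4813 in CD104low. These groups overlap throughout, with a log2 fold change of −0.014 and a 95% confidence interval of −0.17 to 0.15. Within each library, where no scaling enters, the ratio of TIPIN to TIMELESS reads was 0.185, 0.181 and 0.189 in CD104high, against 0.286, 0.267 and 0.247 in CD104low. The ratios did not overlap between the groups. The partners were set in a ratio after their values were seen, so this follows largely from those values and was not tested. TIPIN (ENSG00000075131.10) spans chromosome 15, 66336206 to 66386746, on the minus strand. A processed pseudogene of RPL9 lies within 21.0% of its annotated exon bases, so its count may hold or lose reads of that sequence.

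CLSPN encodes claspin, which carries the signal from ATR to CHK1 at stalled forks. It had 3059, 3032 and 3128 reads in CD104high, against 3437, 3590 and 3726 in CD104low. The gap was small but wider than the spread within either group, and CLSPN fell by 0.22 (SE 0.07, adjusted p = 0.0378). Its call ended without any 1 library other than CD104low replicate 1 (adjusted p of 0.0799 to 0.115). WDHD1, also called AND-1, which ties polymerase alpha to the helicase, had 3110 ± 244 in CD104high and 3379 ± 310 in CD104low (limma adjusted p = 0.372).

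**Figure D3:**
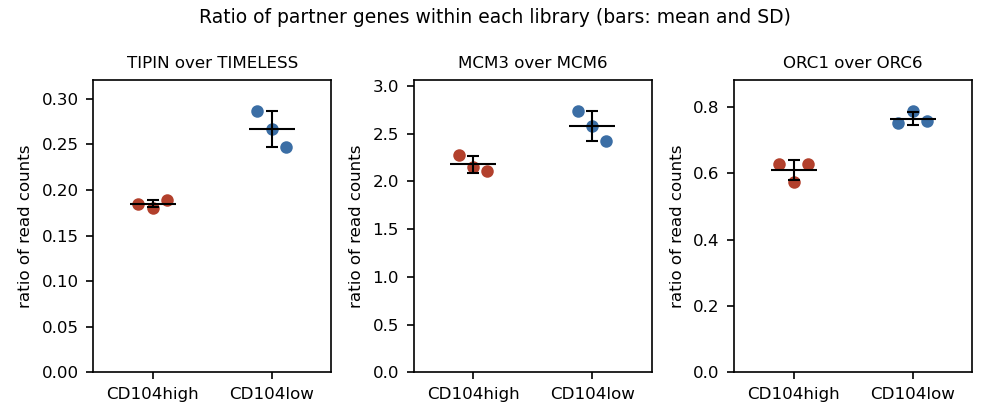
Ratios of normalised reads of partner genes within each library, with the 3 CD104high libraries (red) left of the 3 CD104low libraries (blue), and bars for mean and SD. TIPIN over TIMELESS averages 0.185 in CD104high and 0.267 in CD104low, MCM3 over MCM6 2.18 and 2.58, and ORC1 over ORC6 0.609 and 0.764. The partners were chosen after their values were seen.

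All 3 genes grouped here as loaders and geminin, apart from the origin recognition complex, fell, against 11.3% of all genes. GMNN, encoding geminin, had 3489, 3807 and 4247 reads in CD104high, against 5707, 4953 and 4631 in CD104low. Libraries numbered 3 were closest to each other, and GMNN fell by 0.40 on the log2 scale (SE 0.10, limma adjusted p = 0.0153). CDC6, the ATPase that recruits the helicase to the origin complex, had 5838, 5394 and 6647 reads in CD104high, against 7713, 7085 and 7554 in CD104low. It fell by 0.33 (SE 0.08, adjusted p = 0.0201), with CD104high replicate 3 nearest to the CD104low libraries. CDT1, which delivers the helicase and is the target of geminin, had 4286, 4141 and 4537 reads in CD104high, against 5431, 4902 and 4868 in CD104low. The groups did not overlap, and CDT1 fell by 0.23 (SE 0.07, adjusted p = 0.0451). The call for GMNN ended without CD104high replicate 1 or 2 (adjusted p of 0.0537 to 0.0706), and that for CDC6 without CD104high replicate 1 or 2 or CD104low replicate 1 (0.0527 to 0.0818). That for CDT1 ended without any 1 of the 6 libraries (0.0508 to 0.15). With the dependence on transcript length and GC taken out, the log2 fold changes of GMNN, CDC6 and CDT1 were −0.30, −0.31 and −0.40 (limma adjusted p = 0.0206, 0.0282 and 0.00178). The ratio of CDT1 to GMNN reads was 1.23, 1.09 and 1.07 in CD104high, against 0.952, 0.99 and 1.05 in CD104low, higher in CD104high without overlap. It was likewise formed after the values were seen and not tested.

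In the origin recognition complex, which marks the sites where the helicase is loaded, 1 of 6 genes passed (16.7%, against 11.3% of all genes). ORC1, the subunit whose level is regulated over the cell cycle, had 1261, 1107 and 1278 reads in CD104high, against 1552, 1514 and 1508 in CD104low. It fell by 0.33 (SE 0.09, adjusted p = 0.0225), and the CD104low values lay close together. Its call ended without CD104high replicate 1 or 2 or CD104low replicate 1 or 2 (adjusted p of 0.0501 to 0.091). ORC6 had 2011, 1929 and 2037 reads in CD104high, against 2070, 1926 and 1992 in CD104low. Its log2 fold change was −0.0026, with a 95% confidence interval of −0.17 to 0.16. The ORC1 to ORC6 ratio was 0.627, 0.574 and 0.628 in CD104high, against 0.75, 0.786 and 0.757 in CD104low, with no overlap. This ratio too was formed after the values were seen, and no test was made. ORC2, ORC3, ORC4 and ORC5 lay between −0.25 and 0.050 on the log2 scale (limma adjusted p of 0.0877 to 0.749), and with the block ORC2 and ORC5 passed as lower (adjusted p = 0.0225 and 0.0336).

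The MCM2-7 genes encode the 6 subunits of the helicase ring, and 2 of them fell (33.3%, against 11.3% of all genes). MCM3, with the highest mean of the 48 genes, had 22685, 20990 and 21850 reads in CD104high, against 28068, 25935 and 25102 in CD104low. It fell by 0.27 (SE 0.07, limma adjusted p = 0.0201). MCM2 had 7829, 6844 and 8170 reads in CD104high, against 10109, 8628 and 9075 in CD104low, and fell by 0.28 (SE 0.09, adjusted p = 0.0392). For both, every CD104high library lay below every CD104low library. MCM7 had 20248, 16727 and 21922 reads in CD104high, against 23322, 19661 and 25828 in CD104low. Here the groups overlap, since libraries numbered 2 were low and those numbered 3 high in both, and the call depends on the pairing. The log2 fold change was −0.22 (limma adjusted p = 0.199), and with the block MCM7 passed as lower (adjusted p = 0.0166). The call for MCM3 ended without CD104high replicate 2 or 3 or CD104low replicate 2 (adjusted p of 0.0515 to 0.0826), and that for MCM2 without CD104high replicate 1 or 2 or CD104low replicate 1 or 3 (0.0546 to 0.144). An antisense gene overlaps 22.7% of the exon bases of MCM2.

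MCM6 had 9956, 9737 and 10367 reads in CD104high, against 10264, 10036 and 10373 in CD104low. The values nearly coincide, with a log2 fold change of −0.029 and a 95% confidence interval of −0.16 to 0.10. MCM4 had 12382 ± 344 in CD104high and 13332 ± 337 in CD104low, and MCM5 8366 ± 682 and 9104 ± 529 (SD, n = 3 each), neither of which passed (limma adjusted p = 0.232 and 0.284). With the block and the dependence on length and GC taken out, MCM5 passed as lower (adjusted p = 0.0332). The ratio of MCM3 to MCM6 reads was 2.28, 2.16 and 2.11 in CD104high, against 2.73, 2.58 and 2.42 in CD104low. The ratio was lower in every CD104high library. These subunits were set side by side after their values were seen, and no test was made. Per kilobase of transcript, the 6 subunits differed in level within a group. In CD104high the mean was 6809 normalised reads per kilobase for MCM3, 6366 for MCM7, 2960 for MCM4, 2682 for MCM6, 2367 for MCM5 and 2102 for MCM2. In CD104low the same subunits had 8220, 7437, 3187, 2737, 2576 and 2559 reads per kilobase, the same order.

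Of 8 genes that activate the loaded helicase, MCM10 and GINS2 fell (25%, against 11.3% of all genes). MCM10, which is needed for the activated helicase to unwind DNA, had 2792, 2628 and 2803 reads in CD104high, against 3282, 3589 and 3427 in CD104low. It fell by 0.32 (SE 0.07, limma adjusted p = 0.00972), with tight values in both groups. GINS2, a subunit of the GINS complex, had 2290, 2152 and 2451 reads in CD104high, against 3117, 2652 and 2782 in CD104low. It fell by 0.31 (SE 0.09, adjusted p = 0.0275), and its call ended without CD104high replicate 1 or 2 or CD104low replicate 1 (0.0686 to 0.106). The kinase gene CDC7 and its activator DBF4 had log2 fold changes of −0.27 and −0.26 (limma adjusted p = 0.0605 and 0.0919) and both passed as lower with the block (adjusted p = 0.0132 and 0.0193). CDC7 passed in 5 of the 19 alternative fits and DBF4 in 3. Without the pairing, both passed when CD104low replicate 1 was left out, and CDC7 in DESeq2 and without both libraries numbered 3. CDC45, the helicase cofactor, had −0.24 (limma adjusted p = 0.0984), and 0.0313 with the block. GINS1, GINS3 and GINS4 lay between −0.22 and −0.064 and did not pass (adjusted p of 0.167 to 0.565).

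Among the polymerases, 1 of 9 genes fell, a share close to the 11.3% lower of all genes tested. POLD3, an accessory subunit of polymerase delta, had 2224, 2201 and 2288 reads in CD104high, against 2827, 2720 and 2531 in CD104low. The groups were apart, and POLD3 fell by 0.27 (SE 0.07, limma adjusted p = 0.0265), but its call ended without any 1 library other than CD104low replicate 3 (0.0555 to 0.0902). The catalytic subunit genes POLD1, POLE and POLA1 had log2 fold changes of −0.12, −0.076 and −0.18 (limma adjusted p of 0.303 to 0.54), and POLD2 and POLE2 had −0.22 and −0.11. POLD1 passed as lower when the dependence on transcript length and GC was taken out (log2 fold change −0.30, adjusted p = 0.0123), and POLD2 with the block (adjusted p = 0.0259). POLE passed as lower with the block and that correction together (adjusted p = 0.0377). None of the 4 genes of polymerase alpha and primase, which lay the RNA-DNA primer, passed. PRIM2, the large primase subunit, had 1990, 1992 and 2062 reads in CD104high, against 2249, 2376 and 2301 in CD104low. These values do not overlap, but the log2 fold change of −0.20 (SE 0.07) missed the threshold (limma adjusted p = 0.0701). PRIM1, the catalytic primase subunit, had 470, 653 and 778 reads in CD104high and 889, 819 and 746 in CD104low, where libraries numbered 3 cross over (log2 fold change −0.39, SE 0.17, limma adjusted p = 0.12). PRIM1 passed as lower without CD104high replicate 3 and without both libraries numbered 3.

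**Figure D4:**
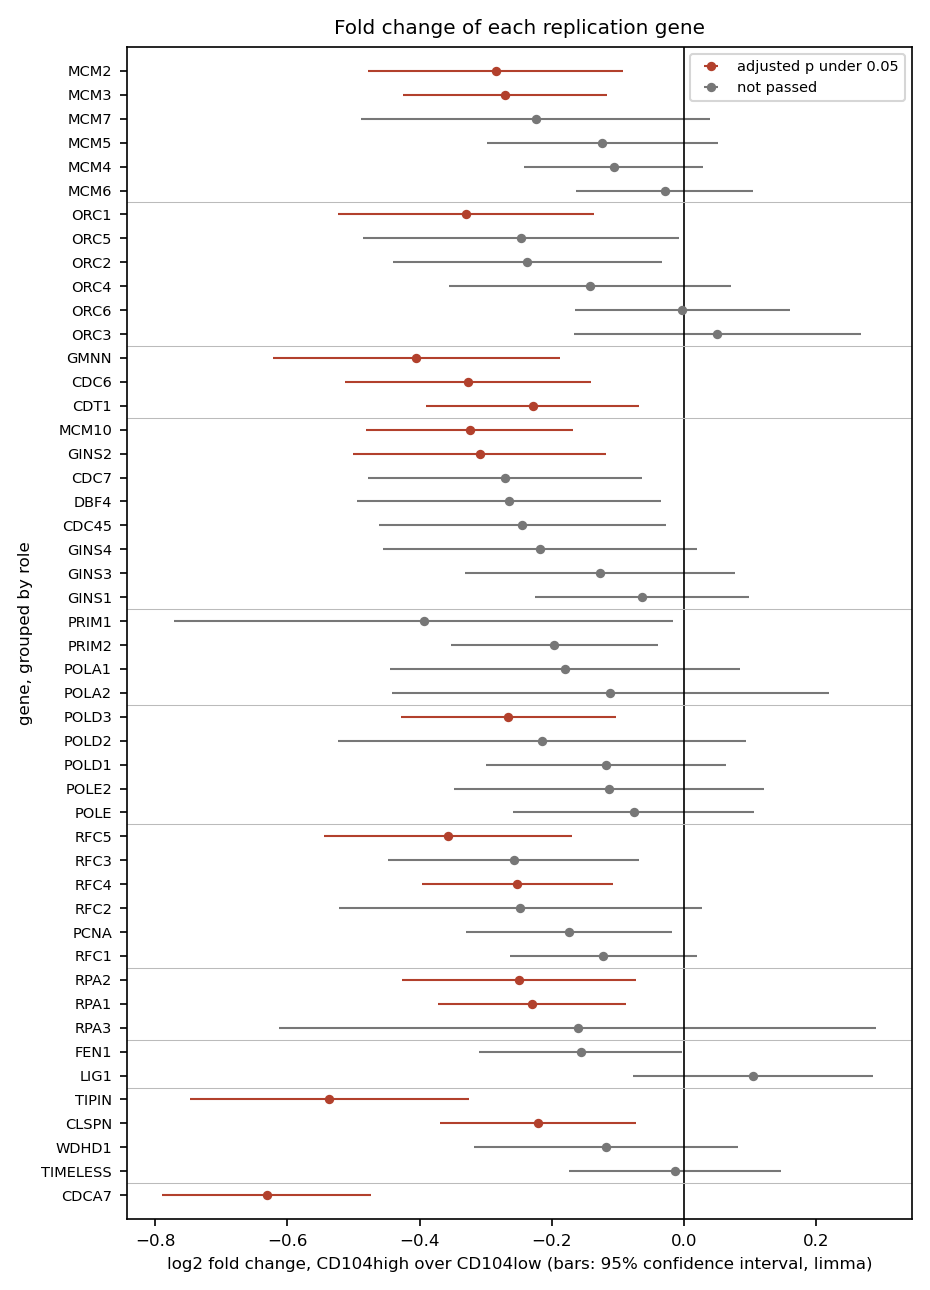
Log2 fold change of CD104high over CD104low for each of the 48 genes (points) with the 95% confidence interval from limma (bars), grouped by role. The 16 genes in red passed the test and lie between −0.63 and −0.22; LIG1 and ORC3 are the 2 genes with points right of 0.

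PCNA, the sliding clamp, and the 5 RFC genes, which load it, all had log2 fold changes below 0, and RFC5 and RFC4 fell. RFC5 had 2271, 2270 and 2285 reads in CD104high, against 3205, 2942 and 2623 in CD104low. The CD104high values were almost equal and the CD104low values spread out, with a fall of 0.36 (SE 0.08, limma adjusted p = 0.0141). RFC4 had 3089, 3032 and 3220 reads in CD104high, against 3753, 3672 and 3699 in CD104low, and fell by 0.25 (SE 0.06, adjusted p = 0.0201). The call for RFC5 ended without CD104high replicate 1 or 2 (0.0501 to 0.0521), and that for RFC4 without CD104high replicate 1 or 2 or CD104low replicate 2 (0.0556 to 0.0798). PCNA, the gene with the highest level per kilobase (8499 in CD104high and 9587 in CD104low), had a log2 fold change of −0.17 (SE 0.07, limma adjusted p = 0.0995). RFC3 missed the threshold (−0.26, limma adjusted p = 0.0537) and passed in 6 of the 19 alternative fits. These were the block (0.0419), edgeR and limma with TMM scaling, DESeq2, and the fits without CD104low replicate 3 and without both libraries numbered 3. RFC2 had −0.25 (limma adjusted p = 0.175), with both libraries numbered 3 high, and passed with the block (adjusted p = 0.016). RFC1, the large subunit, had −0.12 (limma adjusted p = 0.191).

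RPA1 and RPA2, the large and middle subunits of the single-strand binding protein, both fell. RPA1 had 12780, 12561 and 12203 reads in CD104high, against 15236, 14923 and 13901 in CD104low, and fell by 0.23 (SE 0.06, limma adjusted p = 0.0276). RPA2 had 2772, 2908 and 3234 reads in CD104high, against 3639, 3340 and 3607 in CD104low, and fell by 0.25 (SE 0.08, adjusted p = 0.0462). Neither gene overlapped between groups. The call for RPA1 ended without any 1 CD104high library or CD104low replicate 2 (0.0658 to 0.0941), and that for RPA2 without any 1 library other than CD104high replicate 3 (0.0606 to 0.158) or with the length and GC trend removed (0.0601). RPA3, the small subunit, had 1478, 1587 and 2180 reads in CD104high and 2206, 1372 and 2361 in CD104low, a spread that leaves its direction unresolved (95% confidence interval −0.61 to 0.29).

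Neither gene of Okazaki fragment maturation passed. FEN1, the flap nuclease, had 7526, 7877 and 8498 reads in CD104high, against 9223, 8584 and 8813 in CD104low. Those values do not overlap, with a log2 fold change of −0.16 (SE 0.07, limma adjusted p = 0.127). LIG1, the ligase that seals the fragments, had 6121, 5355 and 5557 reads in CD104high, against 4795, 5542 and 5517 in CD104low. LIG1 overlapped between groups and was, with ORC3, 1 of 2 genes with a point estimate above 0 (0.10, 95% confidence interval −0.078 to 0.29, limma adjusted p = 0.388).

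**Figure D5:**
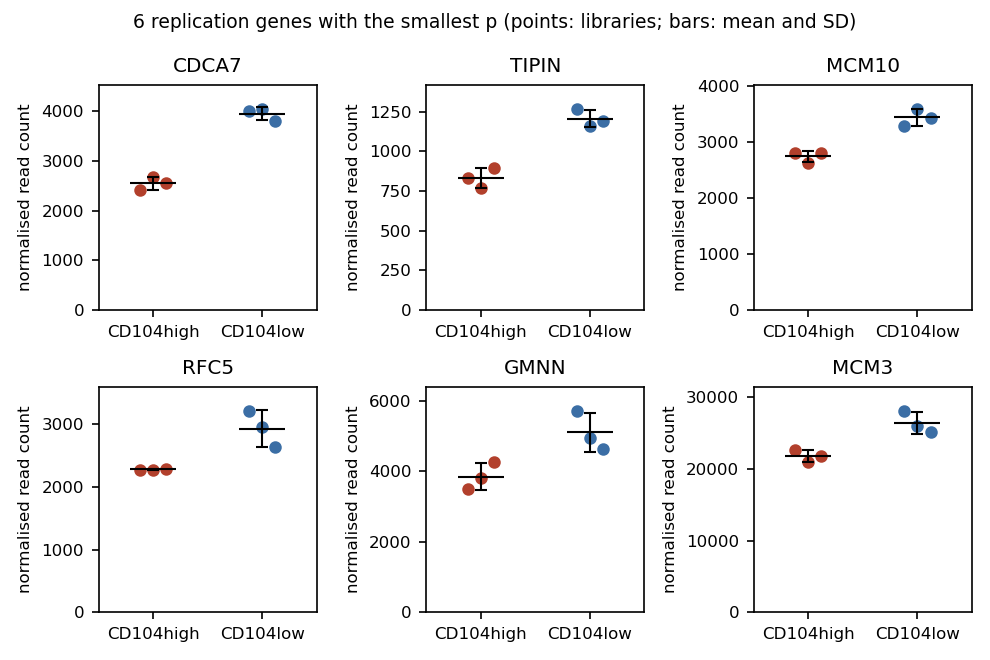
Normalised read counts of the 6 replication genes with the smallest p, with the 3 CD104high libraries (red) left of the 3 CD104low libraries (blue), and bars for mean and SD; axes start at 0. In each panel every CD104high library lies below every CD104low library.

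Of 95 further genes of replication and S phase on 6 lists, all of which were tested, 27 fell (28.4%) and 3 rose, against 11.3% lower and 12.1% higher of all genes, with a median log2 fold change of −0.18. Of 25 other replication factors, 6 fell and 1 rose (median −0.13). SSRP1, a subunit of the histone chaperone FACT, had 19909 ± 391 in CD104high and 29050 ± 1508 in CD104low, a fall of 0.54 on the log2 scale (SD, n = 3 each; limma adjusted p = 0.000701). POLE3, a small subunit of polymerase epsilon, and TOP1, a topoisomerase, fell by 0.44 and 0.38 (adjusted p = 0.00197 and 0.00273). POLD4, the smallest subunit of polymerase delta, rose 1.65-fold (adjusted p = 0.0112), with 750, 688 and 488 reads in CD104high against 408, 363 and 377 in CD104low. Its call ended without CD104high replicate 1 or 2 (adjusted p up to 0.0578).

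Of 24 genes of the E2F and RB families and S phase entry, 6 fell and 2 rose (median −0.18). CDKN1A, encoding the CDK inhibitor p21, had 4094, 4036 and 2954 reads in CD104high, against 2168, 1896 and 1730 in CD104low. It rose 1.9-fold (SE 0.13 on the log2 scale, limma adjusted p = 0.00136), and RBL2, a pocket protein that represses E2F targets, rose 1.33-fold (adjusted p = 0.00787). E2F4 and E2F3 fell by 0.41 and 0.37 (adjusted p = 0.0028 and 0.00365), and CDC25A, the phosphatase that activates CDK2, by 0.49 (adjusted p = 0.00525). E2F1, the E2F best known for activating replication genes, had 8302 ± 853 in CD104high and 7983 ± 919 in CD104low, with no call (limma adjusted p = 0.714). Its values, like those of RBL2, stand here outside the naming rule.

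Of 12 genes of deoxynucleotide supply, 4 fell and 0 rose (median −0.19). DCTPP1, NME1, DTYMK and RRM1, enzymes of the nucleotide pool, fell by 0.58, 0.55, 0.29 and 0.21 (adjusted p of 0.00661 to 0.0396), and 3 of these calls depended on single libraries. That for NME1 ended without CD104high replicate 1 or 2, that for DTYMK also without CD104low replicate 1 or 2, and that for RRM1 without any 1 library other than CD104low replicate 1 (adjusted p up to 0.131). Among 11 genes of the ATR checkpoint, RAD9A of the checkpoint clamp fell by 0.31 (adjusted p = 0.0332, and up to 0.118 without any 1 library other than CD104low replicate 3) and 0 rose (median −0.18), a share of 9.09% lower that is below that of all genes. Among 11 genes of replication-coupled chromatin, ZBTB24, UHRF1 and DNMT1 fell and 0 rose (median −0.12). UHRF1, which brings the maintenance methyltransferase DNMT1 to new DNA, fell by 0.32 and DNMT1 by 0.28 (adjusted p = 0.013 and 0.0319). The call for UHRF1 ended without CD104high replicate 2 (adjusted p = 0.0587), and that for DNMT1 without any 1 library other than CD104low replicate 1 (up to 0.118). Of 12 general proliferation markers, mostly mitotic, 7 fell and 0 rose (median −0.28), led by PLK1, CDC20, CCNB1 and CCNB2 with falls of 0.46, 0.61, 0.42 and 0.35 (adjusted p of 0.00126 to 0.0093). MKI67, the marker most used for cycling cells, had 35337 ± 3617 in CD104high and 41755 ± 7382 in CD104low and did not pass (limma adjusted p = 0.227). CDK1 was the 1 gene of these 12 with a log2 fold change above 0 (0.14, limma adjusted p = 0.366).

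In the authors' deposited table, 19 of the 48 genes had an adjusted p under 0.05 and were lower and 0 were higher, against 14.8% lower among all genes with an adjusted p there. The 3 genes called there and not in limma were RFC3, CDC7 and PRIM2, with adjusted p of 0.0304, 0.0365 and 0.0182 in the authors' deposited table.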

How the data were processed

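The 6 libraries, 3 CD104high and 3 CD104low, were made from total RNA. The submitters' processing notes name the tools DESeq2 1.30.1, featureCounts 1.5.0, STAR 2.4.0 and FastQC and the build GRCh38.p13, and give no roles. Whether counting used strand is not given in the sources used here. Reads of a gene and of one that overlaps it, antisense genes included, may therefore not have been told apart. The authors deposited values of the unit signal, gene read counts divided by a size factor per library, and beside them a log2 fold change with its standard error, a score (the test statistic) and raw and adjusted p-values. No value was 0, so genes without reads in some library were not analysed here.

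A count test had been planned only for raw counts. As planned for normalised values, log2(value + 1) was tested with limma 3.58.1 in R 4.3.3, with a variance prior that follows the mean; p-values were adjusted by Benjamini-Hochberg, and the threshold was 0.05. The 14343 genes that reached a value of 10 in 3 or more libraries entered, and 681 were removed. All adjusted p-values are from this fit unless another is named. Whole reads were recovered by the worth of 1 read, with 100% of values within 0.1 of a whole number; in CD104high replicate 2 that worth was 0.993, too near 1 to be certain, so edgeR 4.0.16, DESeq2 1.42.0 and voom on these reads were alternatives only. The scripts were tested on simulated data. The pairing of libraries was checked from their deviations from the mean of their group. Same-numbered libraries correlated at 0.17, 0.32 and 0.48 across genes, and other combinations at −0.37 to 0.13. Pair 1, at 0.17, thus stood little above the 0.13 of CD104high replicate 2 with CD104low replicate 1. Deviations cancel out within a group, so these correlations are not independent. The numbers were taken to pair the libraries, from the data and not from the labels. The values that gave the pairing are also those tested with the block.

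Per-library values were named for each replication gene past the threshold, for the gene with the smallest p of each role without one, and for the 2 with the highest mean; others, the partners set in ratios among them, were named after their values were seen. Among ratios formed but not shown, CDC6 over CDT1 and RPA1 over RPA2 overlapped between the groups. MCM2 over MCM6, MCM3 over MCM4, MCM3 over MCM5 and RFC5 over RFC1 were lower in CD104high without overlap. Of each further list, up to 4 genes with the smallest p were named. Members and lists were chosen with earlier results of these data known. Lengths (the longest coding transcript), spans and exon overlaps are from GENCODE 29, matched without the version of the identifier, so they may differ from those counted on. Intervals cover 95%.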

Additional observations from a re-analysis of the deposited data

How the results depend on the processing

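The number of replication genes that fell, 16, stayed within 16 and 18 with edgeR, DESeq2, voom, TMM scaling, no filter and pseudocounts of 0.1 and 5, against 10.6% to 13.2% of all genes lower, and all 16 calls were kept in each of these. It was 16 with the length and GC trend removed (15 of the same calls), against 13.9% of all genes lower, and 16 without both libraries numbered 3 (13 of the same), against 10.2%. It was 25 with the replicate block and 26 with both the block and that correction, against 15.4% and 18.5% of all genes lower, each with all 16 calls kept. It was 5 in limma without the mean-variance trend, against 6.53% of all genes lower. These 5 were CDCA7, TIPIN, MCM10, RFC4 and ORC1, and the other 11 calls ended there. The 3 calls that ended without both libraries numbered 3 were those for RFC4, RPA1 and CLSPN. At a threshold of 0.01 the number that fell was 3 and 0 rose, where 1436 of all 14343 genes were called in either direction. How many of all genes were lower at 0.01 was not counted, so counts that fell at 0.01 have no matching share. Leaving out 1 library gave 3 to 13. The number that rose was 0 throughout, with 0 also at an unadjusted p under 0.05. The median of −0.22 was −0.19 with the length and GC trend removed. Genes of the further lists that fell, 27, were 17 without the mean-variance trend, 14 at 0.01, 42 with the block and that correction, and 16 to 27 without 1 library. At 0.05, 6.53% of all genes were lower without the mean-variance trend, 18.5% with the block and that correction, and 5.57% to 10.8% without 1 library. Among the further genes, the calls for NME1, DTYMK, RRM1, RAD9A, UHRF1 and DNMT1 ended without the mean-variance trend. Those for RRM1, RAD9A and DNMT1 also ended without both libraries numbered 3, and that for RRM1 with the length and GC trend removed. All genes called, 3355, were 2173 without the trend, 1436 at 0.01, 5420 with the block and that correction, and 1816 to 3313 without 1 library. The cause of these shifts was not tested; fits without 1 library have fewer samples.

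Direction changed only in genes near 0 that passed in none of these fits. MCM6 was at 0.013 and ORC6 at 0.079 with the length and GC trend removed, with and without the block. Without both libraries numbered 3, POLA2 was at 0.061 and ORC3 at −0.053. Without 1 library, ORC3 ran from −0.0034 to 0.14, TIMELESS from −0.052 to 0.030 and ORC6 from −0.028 to 0.024. The gene with the fewest reads, POLA2, had 268 to 368 in a library. Whether depth or the number of libraries limits the calls was not tested.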

Other observations

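The second row listed as POLA2 (ENSG00000285816.1) is annotated in GENCODE 29 as a separate gene whose exons overlap those of POLA2 and of CDC42EP2, its neighbour. It had 41.5, 26.8 and 32.9 normalised reads in CD104high libraries 1 to 3, against 65.0, 45.3 and 40.2 in CD104low libraries 1 to 3, and did not pass (log2 fold change −0.55, limma adjusted p = 0.219). POLA2 itself (ENSG00000014138.9) had 330.0, 299 and 276 reads in CD104high and 292, 310.2 and 379 in CD104low. Reads on the exons that both share may have been left out or divided, and POLA2 had the lowest level per kilobase of the 48 genes, 80.5 in CD104high and 87.4 in CD104low.

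The replication genes together took 0.427%, 0.404% and 0.446% of all normalised reads in CD104high replicates 1 to 3, against 0.482%, 0.467% and 0.494% in CD104low replicates 1 to 3. In numbered pair 1, 43 of 48 genes were lower in CD104high, in pair 2 45 and in pair 3 43, with median log2 ratios of −0.27, −0.24 and −0.15. Of the 95 further genes, 19 had a log2 fold change above 0. Among them was the topoisomerase gene TOP2A, which relieves torsion ahead of forks and separates chromosomes in mitosis. TOP2A had 46712 ± 1426 reads in CD104high and 39897 ± 3075 in CD104low (SD, n = 3 each) without overlap, and missed the threshold (log2 fold change 0.23, limma adjusted p = 0.0551).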
